A study of Mus musculus with 9 samples.

Results

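The Hedgehog pathway was described through 9 genes: the ligands Ihh, Shh and Dhh, the receptor Ptch1, the signal transducer Smo, the ligand-binding inhibitor Hhip and the transcription factors Gli1, Gli2 and Gli3. They were chosen by name, with earlier results of these data known. All 9 were found among the 43644 genes of the table, and all 9 passed the filter on low values that left 29107 genes for testing. RNA came from C57BL/6 coronal sutures, where frontal and parietal skull bones meet across a strip of fibrous tissue, in mice aged 7 months. There were 3 groups of 3 libraries each, and all were compared with each other. REG mice were Twist1+/- and had suture regeneration surgery at 1 month of age. MUT mice were Twist1+/- without surgery. WT mice were wild type without surgery. Both Twist1+/- groups thus carry the same lesion, a lost copy of Twist1, a transcription factor gene whose loss is known to cause early fusion of this suture. The labels do not say what the surgery placed in the suture, nor whether each library came from a separate animal, so a p-value here speaks only of the spread among libraries.

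In Hedgehog signalling a secreted ligand binds Ptch1, which otherwise holds Smo inactive at the primary cilium. Active Smo lets the Gli factors turn on target genes, among which Gli1, Ptch1 and Hhip themselves are used as readouts, while Gli3 is best known in its shortened form as a repressor. In the skull Ihh is made by bone-forming cells, and in mouse sutures Gli1 marks stem cells that feed the bone fronts.

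The libraries differed along with their groups before any Hedgehog gene is considered. Values are gene counts scaled by the authors to a common upper quartile, called scaled counts here. The REG libraries held 18276494 to 39377876 estimated reads, the MUT libraries 2945636 to 10894209 and the WT libraries 16356391 to 20019712. Background was read from 1747 odorant and pheromone receptor genes, whose known site is the nose. It came to between 0.509% and 0.849% of the reads in REG, to 23.2%, 7.86% and 21.0% in MUT replicates 1, 2 and 3, and to between 0.614% and 0.866% in WT. Mitochondrial genes took 9.70% to 15.5% of the reads in REG, a lower 2.01% to 4.78% in MUT and 9.96% to 13.5% in WT. Summed markers of bone-forming cells and of suture mesenchyme were present in every library, as the tissue label says. The 8 markers of keratinocytes and hair follicles summed to 14.6 to 25.5 reads per 1000000 (RPM) in REG, 298 to 856 RPM in MUT and 14.98 to 25.1 RPM in WT, so MUT stood apart there too. Twist1 itself was at 3.76, 9.19 and 12.2 scaled counts in REG, 0.987, 8.08 and 0.548 in MUT and 16.2, 23.3 and 23.1 in WT, and MUT replicate 2 did not share the low level of the other MUT libraries. The name of that library in the matrix does not carry its group, which follows from the sample title. REG replicate 3 is named there in the form used for the WT and MUT libraries, unlike the other REG libraries. A separate handling of the differently named REG libraries was not tested.

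Promoter sequence was available for 7 of the 9 genes. The 3 shown are Smo and Dhh, which changed in opposite directions between REG and MUT, and Ptch1, the textbook target. Each is the 250 bases before the RefSeq start in GRCm38.p6, written 5′ to 3′ along the gene's strand, with CG dinucleotides in capitals. Smo lies at chr6:29735247-29735496 (plus strand), Dhh at chr15:98898541-98898790 (minus strand) and Ptch1 at chr13:63565736-63565985 (minus strand). The Ptch1 window lies inside the gene span given below (63508328 to 63573598), so it precedes a start within that span and not its 5′ end.
Smo: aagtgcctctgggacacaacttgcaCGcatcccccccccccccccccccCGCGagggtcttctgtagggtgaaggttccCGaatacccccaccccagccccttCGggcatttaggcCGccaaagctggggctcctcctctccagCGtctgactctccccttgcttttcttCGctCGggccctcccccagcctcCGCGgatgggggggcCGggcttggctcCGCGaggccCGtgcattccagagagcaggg
Dhh: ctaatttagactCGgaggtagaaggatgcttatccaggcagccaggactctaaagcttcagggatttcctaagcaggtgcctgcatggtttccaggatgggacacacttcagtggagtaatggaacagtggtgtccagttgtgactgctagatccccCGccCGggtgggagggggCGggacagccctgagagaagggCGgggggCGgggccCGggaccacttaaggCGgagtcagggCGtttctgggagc
Ptch1: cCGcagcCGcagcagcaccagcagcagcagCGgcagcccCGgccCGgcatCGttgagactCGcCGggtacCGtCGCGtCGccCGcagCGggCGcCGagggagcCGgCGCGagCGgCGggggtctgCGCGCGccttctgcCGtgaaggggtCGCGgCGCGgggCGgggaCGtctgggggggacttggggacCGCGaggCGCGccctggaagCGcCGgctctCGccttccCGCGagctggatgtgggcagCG
The Ptch1 window held 41 CG dinucleotides and 78.4% G or C, the Smo window 15 and 68.4%, and the Dhh window 9 and 59.6%. The median over 32851 mouse promoter windows of this length was 6 CG dinucleotides and 52.4% G or C. The Gli binding motif GACCACCCA, searched on both strands, was in 74 of those windows (0.225%) and in 0 of the 7 available here. Its shorter core CCACCCA, which is part of the longer motif, was in 8.11% of all windows and also in 0 of these 7. These letters are absent from these windows only, and nothing follows for binding elsewhere.

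Ihh was the highest of the ligands per length in WT. In RPM per kb of exon, WT levels averaged 1.89 ± 0.52 for Ihh, 0.917 ± 0.046 for Shh and 0.406 ± 0.120 for Dhh (SD, n = 3). All 3 ligands lay below Smo, which was the highest of the 9 genes at 20.8 ± 1.2 on this scale. The other WT levels were 4.53 ± 0.30 for Gli3, 2.68 ± 0.32 for Gli1, 2.63 ± 0.26 for Gli2, 2.23 ± 0.34 for Ptch1 and 0.570 ± 0.129 for Hhip. In this order Gli1, Gli2, Ptch1 and Ihh each overlapped their neighbours across the WT libraries, as did Hhip and Dhh, whereas Smo, Gli3 and Shh stood clear. Smo was also the highest in the other groups, at 10.6 ± 2.2 in REG and 7.05 ± 1.59 in MUT (SD, n = 3).

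Ihh, Indian hedgehog (chromosome 1, 74945315 to 74951672; gene positions are in GRCm38), had 2.76, 1.49 and 0.629 scaled counts in REG, 1.46, 4.56 and 2.27 in MUT and 3.42, 2.22 and 2.77 in WT. The groups overlapped in every comparison. No difference passed the test: the log2 change was −0.12 ± 0.50 in MUT vs WT (adjusted p = 0.865, limma) and −0.68 ± 0.50 in REG vs MUT (adjusted p = 0.318). Here and below, log2 changes are on the log2(scaled count + 0.367) scale with the standard error of the fit, and understate the change of low genes.

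Shh, Sonic hedgehog (chromosome 5, 28456815 to 28467256), was low throughout, with 0.172, 0.242 and 0.756 scaled counts in REG, 1.28, 0.365 and 1.14 in MUT and 1.27, 1.32 and 1.30 in WT. All 3 REG libraries were below all 3 WT libraries, and MUT overlapped both groups. In MUT vs WT the log2 change was −0.45 ± 0.42 (adjusted p = 0.430, limma). The MUT values rest on little: background alone would give between 70.5% and 198% of the Shh reads there, against 5.68% to 7.30% in WT. Genes on the opposite strand cover 15.7% and 12.7% of the Shh exon bases, and the counting strand is not given in the sources used here, so the Shh counts are uncertain.

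Dhh, Desert hedgehog (chromosome 15, 98891152 to 98898540), is best known from Schwann cells, endothelium and testis. It had 0.0658, 0.143 and 0.847 scaled counts in REG, 2.38, 0.898 and 2.63 in MUT and 1.08, 0.672 and 0.914 in WT. Every REG library was below every MUT library, and the fall in REG vs MUT passed the test (log2 change −1.76 ± 0.49, adjusted p = 0.0195, limma). MUT vs WT did not pass (0.81 ± 0.49, adjusted p = 0.218), and 1 MUT library lay within the WT range. Background would give between 9.68% and 169% of the Dhh reads in REG and between 46.6% and 102% in MUT, and after background subtraction the REG vs MUT change was −1.64 with an adjusted p of 0.219. The call was lost under 8 of 20 alternatives. Among these were fits without REG replicate 1 (−1.47, adjusted p = 0.057), MUT replicate 1 (−1.59, adjusted p = 0.069) or MUT replicate 3 (−1.53, adjusted p = 0.071), and with REG replicate 3 alone the change was −0.85. Schwann cell markers, as a sum of 10 genes, were at 56.1 to 79.7 RPM in REG, 76.3 to 217 RPM in MUT and 90.2 to 102 RPM in WT. The part of these cells in the Dhh values was not tested. The exons of Dhh overlap those of Rhebl1 on the same strand over 12.4% of their bases, and a further antisense gene over 25.2%, so its counts are uncertain.

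**Figure D1:**
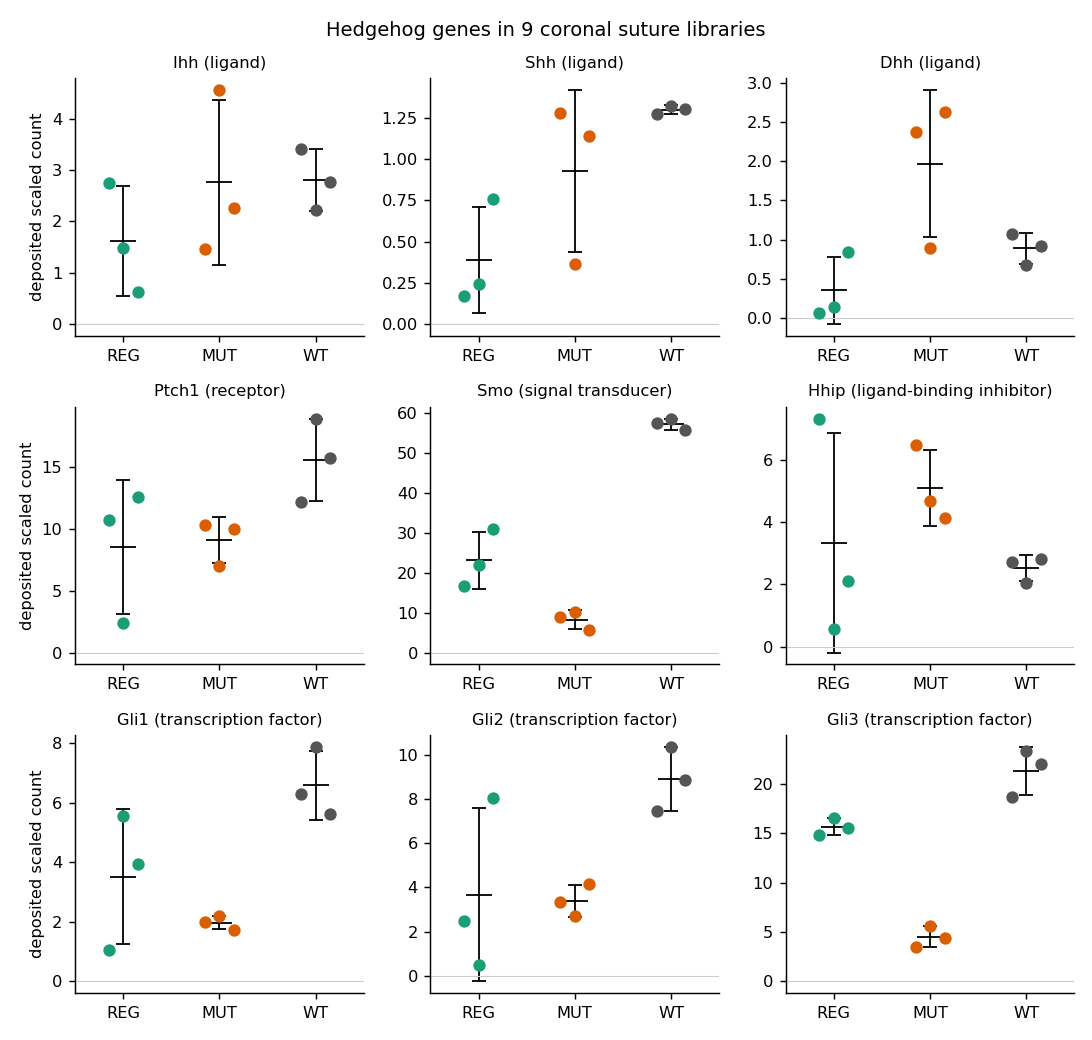
Scaled counts (vertical axes, linear, each with its own range) of the 9 Hedgehog genes in REG, MUT and WT; each point is 1 library, the dash is the mean and the bar the SD (n = 3). Smo and Gli3 show 3 MUT libraries below all REG and all WT libraries, while Ptch1 shows a single low REG library.

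Ptch1, the Hedgehog receptor (chromosome 13, 63508328 to 63573598), had 10.7, 2.38 and 12.6 scaled counts in REG, 10.4, 7.02 and 10.03 in MUT and 12.2, 18.9 and 15.7 in WT. All 3 MUT libraries were below all 3 WT libraries, and REG was spread from below MUT into the WT range, with replicate 2 the lowest of the 9 libraries. Neither change passed the test (MUT vs WT −0.75 ± 0.56, adjusted p = 0.317; REG vs MUT −0.36 ± 0.56, adjusted p = 0.650, limma). The direction of the MUT vs WT difference depended on scaling: it was 0.46 with scaling to total reads, 0.24 with quantile scaling and 0.025 after background subtraction.

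Smo, the membrane protein that carries the signal onwards (chromosome 6, 29735503 to 29761365), had the largest change of the 9 genes in MUT vs WT on the deposited scale, while after background subtraction the changes of Gli3 and Gli1 were larger. It had 16.6, 21.8 and 30.9 scaled counts in REG, 8.90, 10.2 and 5.71 in MUT and 57.4, 58.4 and 55.7 in WT. The 3 groups did not overlap in scaled counts: MUT was lowest, REG lay between and WT was highest. In RPM per kb WT was still highest, but REG replicate 1 (8.07) lay below MUT replicate 1 (8.89). Smo fell in MUT vs WT (log2 change −2.77 ± 0.36, a 6.84-fold lower level, adjusted p = 0.00136, limma). It rose in REG vs MUT (1.44 ± 0.36, adjusted p = 0.0137). In REG vs WT the change was −1.34 ± 0.36 with an unadjusted p of 0.00422 and an adjusted p of 0.498. Background would give 20.8%, 10.2% and 27.4% of the Smo reads in MUT replicates 1, 2 and 3 and at most 0.733% elsewhere. The fall in MUT vs WT was called under all 21 alternatives tried, at −1.56 with total-read scaling and −1.61 after background subtraction. The rise in REG vs MUT lost its call under 5 of 21. It was 0.58 (adjusted p = 0.221) with total-read scaling, 0.64 (adjusted p = 0.276) with quantile scaling and 0.62 (adjusted p = 0.387) after background subtraction. With only the REG and MUT libraries in the fit the adjusted p was 0.056. With MUT replicate 2 as the only MUT library the change was 1.10.

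Hhip, which binds Hedgehog ligands and keeps them from Ptch1 (chromosome 8, 79965851 to 80058006), had 7.34, 0.579 and 2.12 scaled counts in REG, 6.47, 4.68 and 4.14 in MUT and 2.74, 2.04 and 2.81 in WT. The MUT libraries were all above the WT libraries, and REG held both the highest and the lowest value of the 9. The difference did not pass the test in MUT vs WT (0.90 ± 0.64, adjusted p = 0.292, limma). It passed when the wide REG group was left out of the fit (adjusted p = 0.039) and with total-read scaling (2.05, adjusted p = 0.034). Background would give 36.6% to 61.0% of the Hhip reads in MUT and 10.4% to 11.7% in WT.

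Gli1, the activator that is itself a Hedgehog target (chromosome 10, 127329882 to 127341974), had 1.06, 5.56 and 3.93 scaled counts in REG, 1.98, 2.19 and 1.74 in MUT and 6.30, 7.88 and 5.62 in WT. In scaled counts both Twist1+/- groups lay wholly below WT, MUT within a narrow range and REG spread on both sides of MUT. In RPM per kb REG replicate 2 (3.28) lay above every WT library (2.34 to 2.98). Gli1 fell in MUT vs WT (−1.57 ± 0.50, a 2.96-fold lower level, adjusted p = 0.0345, limma). It was not called in REG vs MUT (0.51 ± 0.50, adjusted p = 0.456) or in REG vs WT (−1.06 ± 0.50, adjusted p = 0.532). REG replicate 1 decides the first of these: without it the change was 1.11 and was called (adjusted p = 0.043). The authors' deposited table gives Gli1 a log2 ratio of 1.74 for WT over MUT with an FDR of 0.0605. Background would give 83.6%, 44.0% and 80.5% of the Gli1 reads in MUT replicates 1, 2 and 3, so little of the MUT level stands above it. The call was lost under 10 of 21 alternatives. With total-read scaling the change was −0.46 (adjusted p = 0.504), and after background subtraction it was −1.82 (adjusted p = 0.059). Without each MUT or WT library in turn it stayed between −1.67 and −1.44, and all 6 of these fits missed the threshold.

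Gli2, the main activator of the pathway (chromosome 1, 118834132 to 119053619), had 2.46, 0.486 and 8.05 scaled counts in REG, 3.34, 2.69 and 4.16 in MUT and 7.47, 10.4 and 8.88 in WT. MUT was wholly below WT, and the REG libraries ran from the lowest of all to within the WT range. The MUT vs WT change of −1.31 ± 0.68 was not called (adjusted p = 0.160, limma), but was with only the MUT and WT libraries in the fit (adjusted p = 0.009). REG vs MUT was −0.44 ± 0.68 (adjusted p = 0.642). Its direction rests on REG replicate 2, without which it was 0.39.

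Gli3, which acts mainly as a repressor (chromosome 13, 15463235 to 15730026), had 14.9, 16.6 and 15.6 scaled counts in REG, 3.50, 5.62 and 4.33 in MUT and 18.6, 23.3 and 22.1 in WT. REG was tight and lay between the other groups, with no overlap. Gli3 fell in MUT vs WT (−2.18 ± 0.32, a 4.52-fold lower level, adjusted p = 0.00191, limma) and rose in REG vs MUT (1.75 ± 0.32, a 3.36-fold higher level, adjusted p = 0.00401). REG vs WT was not called (−0.43 ± 0.32, adjusted p = 0.657). Background would give 90.6%, 32.1% and 61.5% of the Gli3 reads in MUT replicates 1, 2 and 3, and at most 1.64% in any other library. The MUT vs WT fall was called under all 21 alternatives. The REG vs MUT rise lost the call under 2, with total-read scaling (0.92, adjusted p = 0.053) and with MUT replicate 2 as the only MUT library (1.42, adjusted p = 0.051).

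**Figure D2:**
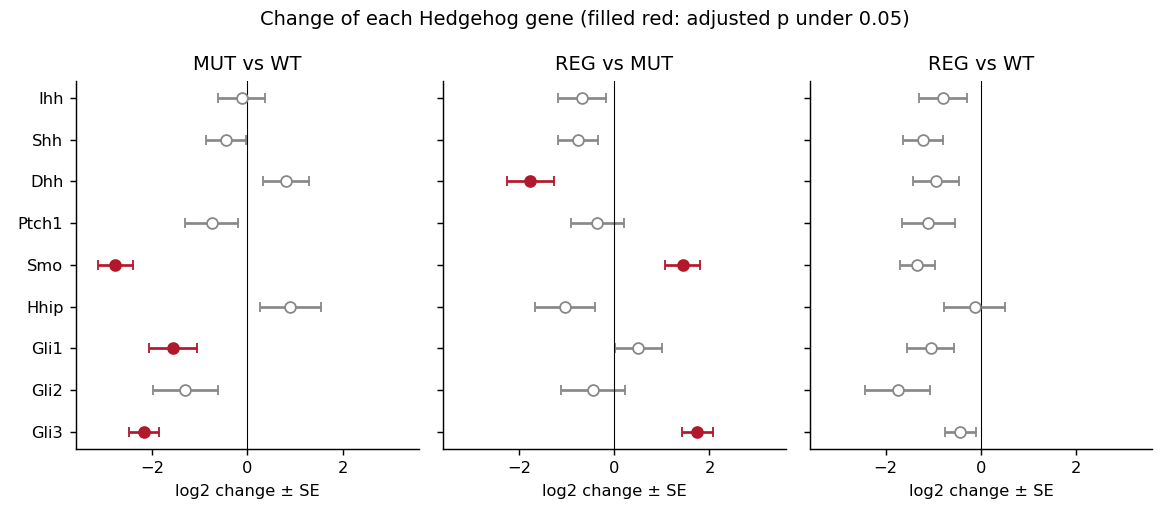
Log2 change ± SE (horizontal axis) of the 9 genes, with a panel for each of the 3 comparisons; filled red points have an adjusted p under 0.05 and open points do not. Smo and Gli3 are filled and on opposite sides of 0 in the first 2 panels, and no point is filled in REG vs WT.

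Over the 9 genes, 3 were called in MUT vs WT, all lower (Smo, Gli3 and Gli1). Of all genes tested, 35.1% were called in that comparison, 20.5% higher and 14.6% lower. The median log2 change was −0.75 over the 9 genes, beside 0.18 over all genes tested. It was −0.99 over the 11449 genes that passed a 10 times stricter filter on low values. In REG vs MUT 3 were again called, Gli3 and Smo higher and Dhh lower, beside 36.6% of all genes (11.8% higher, 24.8% lower). The median was −0.44 over the 9 genes, −0.36 over all genes and 0.73 over those that passed the stricter filter. A count of 3 in 9 is close to these shares, so the number called says nothing particular about the Hedgehog genes. The MUT libraries enter both comparisons, so opposite movements in them are not independent. In MUT vs WT 6 of the 9 genes did not overlap between groups, 5 lower and Hhip higher, beside 58.5% of all genes (32.6% higher, 25.9% lower). In REG vs MUT 3 of the 9 did not overlap, 2 higher and 1 lower, beside 42.5% (14% higher, 28.5% lower). Scaling to total reads put the median of all genes at 1.11 in MUT vs WT, and beside 41.5% of all genes (38.7% higher, 2.89% lower), the 4 genes then called were Smo and Gli3 lower and Dhh and Hhip higher.

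In REG vs WT none of the 9 genes was called by limma, and neither was any of the 29107 genes tested (0%); the smallest adjusted p was 0.35. At an unadjusted p under 0.05 there were 3 of the 9 genes (Smo, Shh and Gli2, all lower in REG), beside 2755 of all genes (9.47%). The authors' deposited table likewise held 0 genes with an FDR under 0.05. In scaled counts REG lay wholly below WT for Shh, Smo, Gli1 and Gli3, 4 of 9 genes, and above it for 0, beside 12.1% lower and 4.03% higher without overlap among all genes (16.1% in all). In RPM per kb REG still lay wholly below WT for Shh and Smo, but overlapped it for Gli1 and Gli3. The median log2 change was −1.06 over the 9 genes and −0.18 over all genes. Without REG replicate 3, Smo (−1.57, adjusted p = 0.047) and Gli2 (−2.56, adjusted p = 0.029) were called lower, beside 5.48% of all genes (1.41% higher, 4.07% lower). REG replicate 3 thus decides calls well beyond the pathway. It is also the REG library whose name differs in form, and the part of this difference in the calls was not tested.

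**Figure D3:**
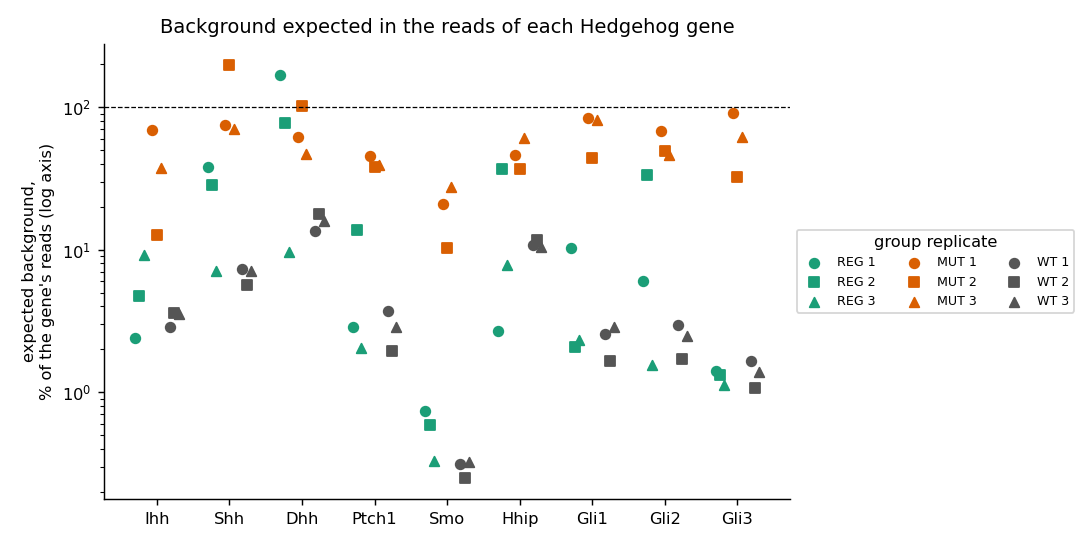
Background expected in each gene's reads, as a percentage of its estimated reads (vertical axis, log scale), by gene and library; symbols mark replicates and the dashed line is 100%. MUT libraries lie above the WT libraries for every gene, at 10.2% to 27.4% for Smo but up to 90.6% for Gli3.

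Ratios within a library do not depend on the scaling between libraries. Of the summed Gli reads per kb, Gli3 held 73.2%, 59.4% and 45.4% in REG, 29.3%, 41.9% and 32.2% in MUT and 45.4%, 44.1% and 48.8% in WT. The Gli3 share was thus lowest in MUT, with no overlap with either other group. Gli1 held 9.96%, 38.2% and 21.9% in REG, 31.7%, 30.6% and 24.6% in MUT and 29.3%, 28.6% and 23.8% in WT, with MUT and WT overlapping. After background subtraction the Gli3 share was 13.5%, 47.7% and 30.6% in MUT and 45.6%, 44.2% and 49.1% in WT, so that MUT replicate 2 then lay within the WT range. The ratio of Ptch1 to Smo per kb, looked at after the values were seen, was 0.255, 0.043 and 0.161 in REG, 0.461, 0.271 and 0.698 in MUT and 0.084, 0.128 and 0.112 in WT. MUT was above both other groups without overlap. With the background subtracted the MUT ratios were 0.319, 0.188 and 0.584, still above the highest WT ratio but overlapping REG. These ratios are descriptions without a test.

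**Figure D4:**
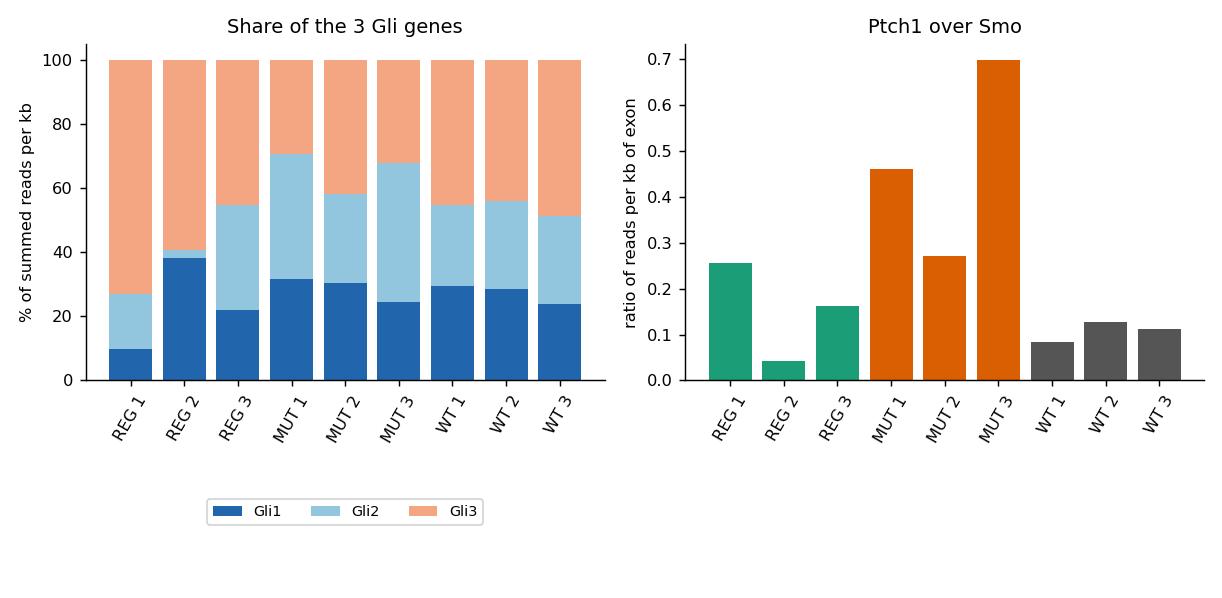
Left, share of Gli1, Gli2 and Gli3 in their summed reads per kb of exon (%) in each library; right, ratio of Ptch1 to Smo reads per kb. Gli3 holds 29.3% to 41.9% in MUT and at least 44.1% in the other libraries, and the ratio is 0.271 to 0.698 in MUT against at most 0.255 elsewhere.

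The rest of the pathway was followed in 55 other genes, all tested. In MUT vs WT 19 were lower and 2 higher, beside 14.6% lower and 20.5% higher among all genes tested; the median log2 change was −0.97, beside 0.18 for all genes. In REG vs MUT 10 were higher and 4 lower, beside 11.8% and 24.8%, with a median of 0.32 against −0.36. In REG vs WT 0 were called, with a median of −0.60. The lists were chosen with earlier results of these data known, so these counts describe them. A 10 times stricter filter on low values left 11449 genes. Of those, 34.8% were lower and 7.95% higher in MUT vs WT, with a median of −0.99. In REG vs MUT 24.3% were higher and 7.62% lower, with a median of 0.73. Higher-valued genes at large thus leaned the same way, so neither lean of the 55 genes is particular to the pathway. With total-read scaling the MUT vs WT split was 7 higher and 4 lower of the 55, beside 38.7% higher and 2.89% lower of all genes.

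Among 6 co-receptors and ligand-binding proteins, Gas1 changed the most. Gas1, a co-receptor that promotes ligand binding, had 19.3, 16.6 and 19.2 scaled counts in REG, 2.12, 3.64 and 2.36 in MUT and 16.4, 33.6 and 31.9 in WT. Its REG libraries were all above MUT and within the WT range, and background would give 15.4% to 46.3% of its reads in MUT. Gas1 fell in MUT vs WT (−3.13 ± 0.38, adjusted p = 0.00118, limma) and rose in REG vs MUT (2.63 ± 0.38, adjusted p = 0.00196), each under all 21 alternatives. Boc, a related co-receptor, averaged 12.5 ± 0.55 in REG, 4.80 ± 1.98 in MUT and 17.4 ± 3.9 in WT, and was called lower in MUT vs WT (adjusted p = 0.00607) and higher in REG vs MUT (adjusted p = 0.0163). These Boc calls were lost under 3 and 8 of 21 alternatives, both with total-read scaling and after background subtraction. Cdon, the third of these co-receptors, fell in MUT vs WT (−1.32, adjusted p = 0.0419), with overlapping groups and background expected to give 82.9%, 20.1% and 78.1% of its MUT reads. The Cdon call was lost under 10 of 21 alternatives. Lrp2, an endocytic receptor that binds Shh, went the other way: it rose in MUT vs WT (1.85, adjusted p = 0.0129, limma) and fell in REG vs MUT (−1.64, adjusted p = 0.0191). Background would give 67.2% to 98.8% of the Lrp2 reads in MUT, and the rise was not called after subtraction (adjusted p = 0.364). The Lrp2 calls were lost under 3 and 5 of 20 alternatives.

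Of 17 genes of cytoplasmic signal transduction, 7 fell in MUT vs WT and 0 rose. Beside the counts in this paragraph, 14.6% of all genes fell and 20.5% rose in MUT vs WT. In REG vs MUT 11.8% of all genes rose and 24.8% fell. With the 10 times stricter filter 34.8% fell in MUT vs WT and 24.3% rose in REG vs MUT. Evc, a cilium-base partner of Smo, averaged 3.33 ± 1.22 in MUT and 16.8 ± 3.2 in WT (−2.25, adjusted p = 0.00542). The others of smallest p were Spop, an adaptor for the ubiquitination of Gli factors (−2.12), Kif7, a ciliary kinesin that controls Gli proteins (−1.72), and the kinase gene Csnk1a1 (−1.34). In REG vs MUT 3 rose, led by Arrb2, a beta-arrestin that binds active Smo (1.95, adjusted p = 0.00642), and Gpr161, a ciliary receptor that restrains the pathway, fell (−1.06, adjusted p = 0.0499). The Arrb2 call was lost under 3 of 21 alternatives and the Gpr161 call under 16 of 20, among them 8 of the 9 fits that left out 1 library (−1.20 to −0.70). In MUT vs WT the call was lost under 1 of 21 alternatives for Evc, 5 for Spop, 7 for Kif7 and 8 for Csnk1a1. Of 8 genes of the primary cilium 3 fell in MUT vs WT: the transport gene Ift172 (−1.67), the motor gene Kif3a (−1.97) and the GTPase gene Arl13b (−1.70). Of the 8, 2 rose in REG vs MUT, Kif3a (1.67, adjusted p = 0.0349) and the transport gene Ift20 (2.21, adjusted p = 0.026). The Kif3a rise lost its call under 13 of 21 alternatives and was 1.03 without MUT replicate 2, where Kif3a rested on 4.07 estimated reads with an expected background of 163% of them. The Ift20 rise lost it under 6, and the falls under 5 (Ift172 and Kif3a) and 7 (Arl13b). Of 6 genes for ligand release, Scube2, which helps shed Shh, fell in MUT vs WT (−1.72, adjusted p = 0.0216), and Disp2, a relative of the ligand exporter Disp1, fell in REG vs MUT (−1.57, adjusted p = 0.0165). These calls were lost under 6 and 5 of 21 alternatives. In MUT, background would give 60.5% to 102% of the Scube2 reads, 44.9% to 67.9% of the Disp2 reads and 37.2% to 64.6% of the Gpr161 reads.

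Of 18 genes known as Hedgehog targets in other tissues, 5 fell in MUT vs WT and 0 rose. Of all genes 14.6% fell and 20.5% rose there, or 34.8% and 7.95% with the 10 times stricter filter. Nkx2-2, a homeobox gene known as a Shh target in the neural tube, had 29.4, 18.7 and 98.2 scaled counts in REG, 9.95, 12.1 and 6.04 in MUT and 132, 112 and 136 in WT. The groups did not overlap, and REG lay between with replicate 3 well above the other REG libraries. Nkx2-2 fell in MUT vs WT (−3.75, adjusted p = 0.00207, limma) under all 21 alternatives and rose in REG vs MUT (2.03, adjusted p = 0.0199), where the call was lost under 7 of 21 alternatives and leaving out 1 library gave 1.34 to 2.53. Background would give 4.42% to 13.2% of its reads in MUT. Foxf2, a forkhead gene, averaged 8.62 ± 6.98 in REG, 1.93 ± 0.94 in MUT and 26.8 ± 3.5 in WT, and was called in MUT vs WT (adjusted p = 0.00871) but not in REG vs MUT (adjusted p = 0.191). The cell cycle gene Ccnd2 and the bone growth factor gene Bmp2 were each called lower in MUT vs WT and higher in REG vs MUT. The Ccnd2 rise lost its call under 15 of 21 alternatives, 7 of them fits without 1 library, and the Bmp2 rise under 5. Both were lost with total-read scaling (Ccnd2 adjusted p = 0.347, Bmp2 adjusted p = 0.209).

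Fewer cells of a type and less RNA per cell cannot be told apart in bulk tissue. Cell type markers were called too. In MUT vs WT 7 of 8 osteoblast markers and 5 of 9 suture mesenchyme markers were lower, beside 14.6% of all genes. Of the same markers 5 of 8 and 5 of 9 were higher in REG vs MUT, beside 11.8%, with 1 of the 9 mesenchyme markers lower. Among genes that passed the 10 times stricter filter, 34.8% were lower in MUT vs WT and 24.3% higher in REG vs MUT. Markers of neurons and glia went the other way, with 5 of 9 higher and 1 lower in MUT vs WT and 4 of 9 lower in REG vs MUT, as did keratinocyte markers, with 4 of 8 higher and 1 lower, and 4 of 8 lower. The neuron and glia markers summed to 34.8 to 82.2 RPM in REG, 270 to 412 RPM in MUT and 32.8 to 48.5 RPM in WT. Summed, the osteoblast markers were at 27787 to 52227 RPM in REG, 5761 to 38522 RPM in MUT and 37745 to 60181 RPM in WT. MUT replicates 1 and 3 lay below the WT range. MUT replicate 2 lay within it, although its Smo was at 10.2 scaled counts against 55.7 to 58.4 in WT. The mesenchyme markers summed to 941 to 2339 RPM in REG, 296 to 734 RPM in MUT and 540 to 885 RPM in WT. REG thus lay wholly above WT there, whereas Smo, Gli1 and Gli3 lay below WT in REG in scaled counts. The part of these cell types in the changes of Smo, Gli1, Gli3 and Gas1 was not tested.

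**Figure D5:**
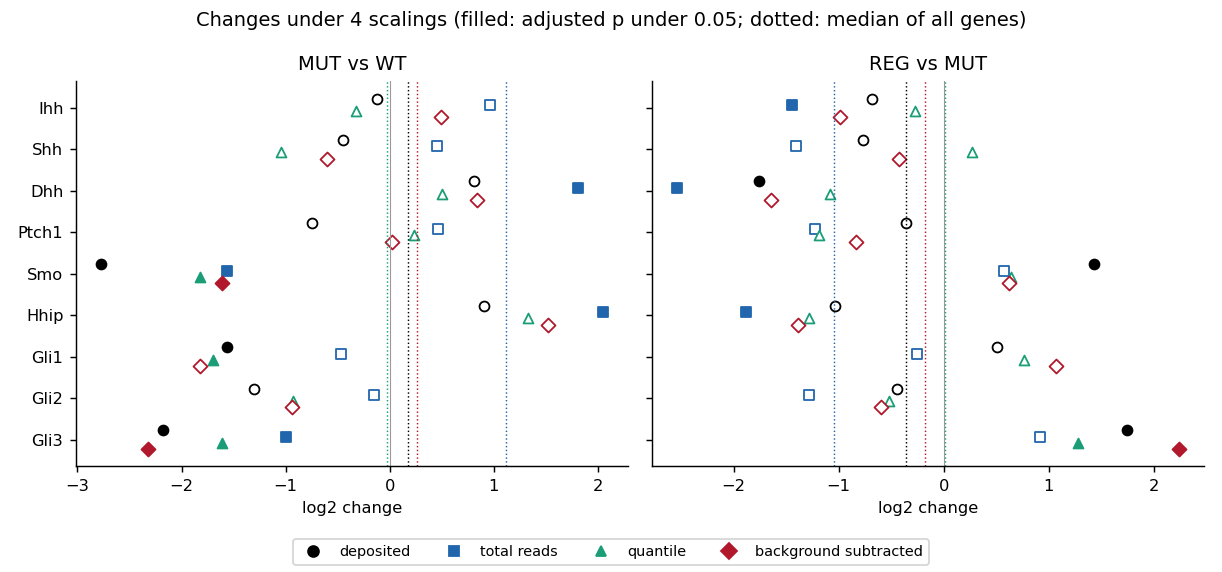
Log2 change (horizontal axis) of the 9 genes under 4 ways of scaling; filled symbols have an adjusted p under 0.05 and dotted lines mark the median of all genes; the left panel is MUT vs WT and the right REG vs MUT. Smo and Gli3 are filled under all 4 in MUT vs WT, whereas Ptch1 runs from −0.75 to 0.46 and Gli1 from −1.82 to −0.46.

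The genes whose levels over the 9 libraries most resembled Gli1 were Hdgfl3 (r = 0.988), Foxc1 (0.970), Snapc4 (0.969), Dlg3 (0.954) and Tbc1d12 (0.951), of 7614 compared by Pearson correlation of the log2 values. Foxc1, a forkhead gene needed for skull development, had 2.29, 13.0 and 13.7 scaled counts in REG, 3.57, 3.69 and 3.59 in MUT and 12.9, 19.7 and 16.1 in WT. Like Gli1 it was low in REG replicate 1 and in all of MUT. Ptch1 was most like Mafk (0.975), Zfp316 (0.971), Diaph2 (0.968), Rbms2 (0.968) and Kdelc1 (0.966), which all had their lowest value in REG replicate 2. Within the pathway Gli1 followed Smo (0.83) and Gli3 (0.69) more than Ptch1 (0.10), ran opposite to Hhip (−0.77), and Ptch1 followed Gli2 (0.94). These correlations describe 9 libraries that share depth, background and group differences.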

How the data were processed

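Total RNA of 9 coronal suture libraries was sequenced with single-end reads. The submitters' processing notes name STAR 2.6.1d, Partek and the mm10 build. How reads were counted, on which strand and with which annotation is not given in the sources used here. Signal values without gene names make up the matrix deposited by the authors. From the values they are gene counts scaled to an upper quartile of about 2.76, each an estimated read number plus 1, times a library factor. Genes were assigned by the order of the deposited gene table, after its 4 summary statistics matched for 43644 of 43644 genes (relative tolerance 1e-06). That table also gives the authors' p-values, FDR, log2 ratios (WT over MUT, REG over MUT and WT over REG), and mean signal and score-like statistics per gene, as deposited.

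Read numbers were estimated by dividing each value by the lowest in its library and taking off 1. The 3 comparisons came from 1 limma 3.58.1 fit (R 4.3.3) of all 9 libraries on log2(value + 0.367), without covariates, for genes that reached 0.367 in 3 or more libraries. Two-sided p-values were adjusted by Benjamini-Hochberg over all 29107 genes, and genes with an adjusted p under 0.05 were called. The smallest exact permutation p for 3 against 3 is 0.1, so none was run. Expected background was the median reads per kb of exon over the receptor genes times a gene's exon length (GENCODE M21). Promoters are from RefSeq. The script was tested on simulated data with known changes. Alternatives were other pseudocounts, filters and scalings, background subtraction, limma with trend, fits of 2 groups, a replicate block, each library left out, and MUT replicate 2 or REG replicate 3 as the only library of its group.

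Named genes are the 9 pathway genes, Twist1, at most 4 called genes of smallest p per list, and the 5 genes most correlated with Gli1 and with Ptch1 among tested genes with a mean value of 5 or more, predicted genes left out; some genes that meet the rule are not reported here. The genes, lists and tests were chosen with earlier results of these data known. The sources mention 3 pairs of samples and a time of 1 week after induction without explaining either, so no pairing was used. Figures were made with matplotlib 3.10.9.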

Additional observations from a re-analysis of the deposited data

How the results depend on the processing

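Of 558 alternative values for the 9 genes, 498 kept their direction and side of the threshold, 25 lost a call, 15 gained one and 20 changed direction. This tally is no measure of robustness. In REG vs WT 0% of all genes were called in every fit but the one without REG replicate 3. In MUT vs WT leaving out REG libraries cannot move the change. The fits of 2 groups and with REG replicate 3 alone gave the same values there. The falls of Smo and Gli3 in MUT vs WT were called under all 21 alternatives. The 9 genes gave 5 calls in MUT vs WT with only the 2 groups compared or with REG replicate 3 as the only REG library, in place of 3, beside 48.6% and 35.1% of all genes. In REG vs MUT they gave 1 call with quantile scaling (14.5% of all genes), background subtraction (15.8%) or only the 2 groups (19.5%), and 0 with MUT replicate 2 as the only MUT library (14.6%), in place of 3 (36.6%); that lone library is assumed to vary like the others. Leaving out 1 library gave 0 to 2 calls in REG vs WT.

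The 21 calls among the 55 other pathway genes in MUT vs WT became 11 when scaled to total reads, 12 under quantile scaling, 5 after background subtraction and 7 with MUT replicate 2 alone, and ran from 7 (without WT replicate 2) to 27 with 1 library left out; they were 12 without MUT replicate 1 and 10 without WT replicate 3. The 14 calls in REG vs MUT became 9 with the lower pseudocount, 3 with quantile scaling, 2 after background subtraction or with 2 groups and 5 with MUT replicate 2 alone. With 1 library left out they ran from 5 (without MUT replicate 1) to 22 (without REG replicate 2), and were 6 without MUT replicate 3. In REG vs WT the range was 0 to 5, the 5 without REG replicate 3.

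Direction changed for values that were not called. In MUT vs WT Ihh was 0.96 with total-read scaling, 0.49 after background subtraction and 0.65 with MUT replicate 2 alone, and −0.51 to 0.20 with 1 library left out. Shh was 0.45 with total-read scaling, and Ptch1 0.46, or 0.24 with quantile scaling and 0.025 after subtraction. In REG vs MUT Shh was 0.27 with quantile scaling and Gli1 −0.26 with total-read scaling. With REG replicate 3 alone Ptch1 was 0.47 and Gli2 1.18; with 1 library left out they ran from −0.77 to 0.35 and from −1.26 to 0.39. Twist1 was −0.095 with MUT replicate 2 alone. In REG vs WT Hhip was 0.064 with the higher pseudocount, 0.17 when scaled to total reads, 0.044 under quantile scaling and 0.13 after subtraction, and −0.91 to 0.61 with 1 library left out. The cause of these changes was not tested.

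All-gene calls in MUT vs WT were 5964 higher and 4261 lower, and 11734 higher and 876 lower with total-read scaling. The 10 times stricter filter left Ihh, Shh and Dhh untested. With the replicate number as a block the same numbers of the 9 genes were called (Smo adjusted p = 0.006, Gli1 0.041 and Gli3 0.007 in MUT vs WT). Same-numbered libraries deviated together with correlations of −0.20 to 0.10, and differently numbered ones with −0.22 to 0.38. Deviations from a mean of 3 libraries are tied to each other, so these values cannot decide whether the numbers pair the libraries. The low depth of MUT replicate 2 limits low genes: Dhh rested on 8 estimated reads there.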
